A study of Mus musculus with 2 samples.

Results

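The liver X receptors (LXRs) and the genes through which they move cholesterol and phospholipid out of macrophages were followed in adipose tissue macrophages (ATMs) of mice given a high fat diet (HFD) overnight and of mice kept on control diet (CD). The 10 genes described, of 31053 in the count tables, were chosen by name: the receptors *Nr1h3* and *Nr1h2*, the transporters *Abca1* and *Abcg1*, the lipid acceptor and transfer proteins *Apoe* and *Pltp*, the lipid enzymes *Lpcat3*, *Scd1* and *Scd2*, and *Mylip*, which encodes a ubiquitin ligase. Male C57/BL6 mice aged 8 to 12 weeks gave epididymal adipose tissue, from which CD45+Lin-Ly6Clow/-F4/80+ cells were sorted and run on a droplet platform that reads the 3' end of transcripts. The 3 mice on CD were pooled into 1 library, and so were the 3 mice fed HFD overnight. With 1 library per diet there was no replicate, so no test between the diets was made. Intervals below are exact 95% intervals that cover counting error only, and each value set against the other diet compares 2 pooled libraries, not replicated conditions. The sort kept F4/80+ cells only, so adipocytes and liver, which also use this pathway, were not measured.

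LXRs are nuclear receptors that bind oxysterols, oxidised forms of cholesterol, and act as pairs with retinoid X receptors. When sterol accumulates in a macrophage they raise transcription of genes that export it: *Abca1* loads lipid-poor apolipoproteins, *Abcg1* passes cholesterol to mature high-density lipoprotein particles, and *Apoe* is a secreted acceptor that macrophages make themselves. The same receptors also drive enzymes that desaturate fatty acids and remodel phospholipids, and they induce *Mylip*, which lowers uptake of lipoprotein cholesterol. A usual reading of LXR activity is therefore that these genes move together, and the data were read for whether they did.

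The promoters of 3 members are shown because these 3 genes shared a pattern across cell groups, described further on. They are 250 bases before the transcription start, 5′ to 3′, from RefSeq on GRCm38.p6, all from genes whose other positions are given on GRCm38 with the annotation GENCODE M21. Capitals mark a TATA box (TATAAA), a GC box (GGGCGG) or an E box (CACGTG). The *Abca1* window is chr4:53159896-53160145 on the minus strand, that of *Mylip* is chr13:45389492-45389741 on the plus strand, and that of *Apoe* is chr7:19699189-19699438 on the minus strand.
Abca1: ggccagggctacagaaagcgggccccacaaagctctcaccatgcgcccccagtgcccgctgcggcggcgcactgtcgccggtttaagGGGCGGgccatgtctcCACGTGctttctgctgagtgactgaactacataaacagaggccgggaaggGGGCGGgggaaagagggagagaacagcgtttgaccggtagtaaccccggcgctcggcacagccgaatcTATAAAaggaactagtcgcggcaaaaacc
Mylip: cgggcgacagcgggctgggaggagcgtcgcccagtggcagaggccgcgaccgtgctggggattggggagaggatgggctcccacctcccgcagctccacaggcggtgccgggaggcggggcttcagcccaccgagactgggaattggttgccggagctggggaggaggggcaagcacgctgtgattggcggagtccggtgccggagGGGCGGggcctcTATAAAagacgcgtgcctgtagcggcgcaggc
Apoe: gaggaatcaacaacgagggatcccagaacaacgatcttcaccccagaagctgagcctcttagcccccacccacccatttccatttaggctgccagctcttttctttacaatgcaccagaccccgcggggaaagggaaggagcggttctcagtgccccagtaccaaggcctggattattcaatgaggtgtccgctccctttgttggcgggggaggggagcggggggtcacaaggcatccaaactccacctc

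*Abca1* and *Mylip* both held a TATA box close to the start, with its first base 29 and 32 bases before it, and the *Apoe* window shown, 1 of 3 entries for that gene, held none of the motifs searched. Another *Apoe* entry held TATA boxes 96 and 100 bases before its own start. A TATA box was found, on either strand, in 12.4% of the 32851 mouse promoters of this length, a GC box in 32.7% and an E box in 6.02%. An exact match to the idealised LXR element, AGGTCA repeated after 4 free bases (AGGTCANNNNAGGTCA), was in 0.0152% of promoters. It was in none of the 10 windows of the 7 members with an entry. The single hexamer AGGTCA was in 14% of promoters and also in none of the 10. That says only that these exact letters are not in these windows. Forms of the element that depart from them were not searched, so their presence was not tested. There was no entry for *Abcg1*, *Scd1* or *Scd2*.

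From 4459 CD barcodes 15003119 UMIs were counted, and from 3163 HFD barcodes 9164686. A UMI marks 1 captured transcript, and levels are UMIs of a gene per 1000000 UMIs of the cells summed (CPM). Cells with 200 to 3500 genes and at most 10% of UMIs from mitochondrial genes were kept, 2364 from CD and 2021 from HFD. The kept HFD cells were shallower, with a median of 2792 UMIs and 1186 genes against 4490.5 UMIs and 1634 genes. Of 14 barcodes that occurred in both libraries, 10 were kept in each. Doublets were not called beyond the upper gene limit. All 7 macrophage markers were above 0 in each cell group of each library, at 1596 to 3656 CPM in sum, and the T cell and neutrophil genes *Cd3e* and *Ly6g* were at 0 in the kept cells. Summed adipocyte markers were at 106 CPM in CD and 60.3 CPM in HFD, and stromal markers at 71.1 and 4.20 CPM.

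Cells were grouped by transcripts of single marker genes, so the groups overlap. A cell with at least 1 UMI of *Timd4*, *Lyve1*, *Ccr2* or *Trem2* was called positive for it, Folr2+Lyve1- cells had *Folr2* but no *Lyve1* UMI, and Lyz1 high cells had at least 10 *Lyz1* UMIs. *Timd4* and *Lyve1* mark long-lived resident ATMs, *Ccr2* and *Lyz1* mark cells newly derived from monocytes, and *Trem2* marks lipid-associated macrophages. CD and HFD held 368 and 72 Timd4+ cells, 1172 and 415 Lyve1+ cells, 872 and 581 Folr2+Lyve1- cells, 1326 and 1131 Ccr2+ cells, 555 and 672 Lyz1 high cells, and 638 and 168 Trem2+ cells. The Timd4+ cells of HFD carried peritoneal macrophage markers at 538 CPM against 54.1 CPM in CD, and 2 of the 72 had a *Gata6* UMI. In CD 60.5% of Trem2+ cells were also Lyve1+, and in HFD 19.0%, so the Trem2+ group was not the same mixture in both libraries.

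*Nr1h3* encodes LXRα, the receptor that sterol loading raises in macrophages, and it was near the limit of detection. The gene lies on chromosome 2 from 91184061 to 91202834 (ENSMUSG00000002108). All kept cells held 50 *Nr1h3* UMIs in CD and 60 in HFD, at 4.07 CPM (3.02 to 5.37) and 7.42 CPM (5.66 to 9.55). A UMI was found in 1.73% of CD and 2.57% of HFD cells, at the median depths given above. For comparison, *Adipoq*, an adipocyte transcript that macrophages do not make, was at 4.97 CPM in CD and 2.60 CPM in HFD, so *Nr1h3* was below it in CD and above it in HFD. Free RNA was not removed, and its part in these low levels was not tested. The log2 ratio of HFD over CD was 0.87 (0.30 to 1.44), and it ran from 0.80 to 1.25 under the 13 alternative ways of choosing, scaling or grouping cells.

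The excess was most visible in Trem2+ cells. There 26 *Nr1h3* UMIs in CD gave 7.18 CPM (4.69 to 10.5) and 24 in HFD gave 25.9 CPM (16.6 to 38.6), a log2 ratio of 1.85 (0.99 to 2.71). Peritoneal macrophage markers in these cells were at 20.4 CPM in CD and 136 CPM in HFD, and their part in this ratio was not tested. Trem2+ cells were above the remaining cells of their own library in both diets, by a log2 ratio of 1.37 (0.52 to 2.24) in CD and 2.37 (1.56 to 3.15) in HFD. In the other groups, CD first, *Nr1h3* was at 6.54 and 17.8 CPM in Timd4+ cells and 4.28 and 7.26 in Lyve1+ cells. Folr2+Lyve1- cells were at 4.03 and 8.69 CPM, Ccr2+ cells at 3.22 and 4.05, and Lyz1 high cells at 1.68 and 3.26. In Timd4+ cells all 5 UMIs of HFD came from the 44 cells without *Lyve1*, and the cells with both markers had 9 UMIs in CD and 0 in HFD. HFD was the higher value in all 6 groups taken whole, and of these groups only Ccr2+ and Trem2+ cells reached 50 UMIs over both libraries. When each cell was counted in 1 group only, 4 and 5 *Nr1h3* UMIs were left in Trem2+ cells that had none of the other markers, too few to compare. Lyz1 high cells had less *Nr1h3* than the other cells of their library, with log2 ratios of -1.73 in CD and -1.98 in HFD.

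*Nr1h2* encodes LXRβ, the receptor present in most tissues, and its transcript was flat. On chromosome 7 from 44549616 to 44553951, it was at 30.0 CPM (27.0 to 33.2) in CD and 30.4 CPM (26.7 to 34.5) in HFD, a log2 ratio of 0.02 (-0.22 to 0.26). Across the 6 cell groups its level ran from 28.6 to 33.3 CPM in CD and from 26.3 to 46.4 CPM in HFD, where the highest value came from 13 UMIs in Timd4+ cells. The Folr2+Lyve1- cells had the only interval of the 6 that lay above 0, with 28.6 CPM in CD, 38.0 CPM in HFD and a log2 ratio of 0.41 (0.00 to 0.81). In none of the 6 groups was the HFD level 1.5-fold or more from the CD level.

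**Figure D1:**
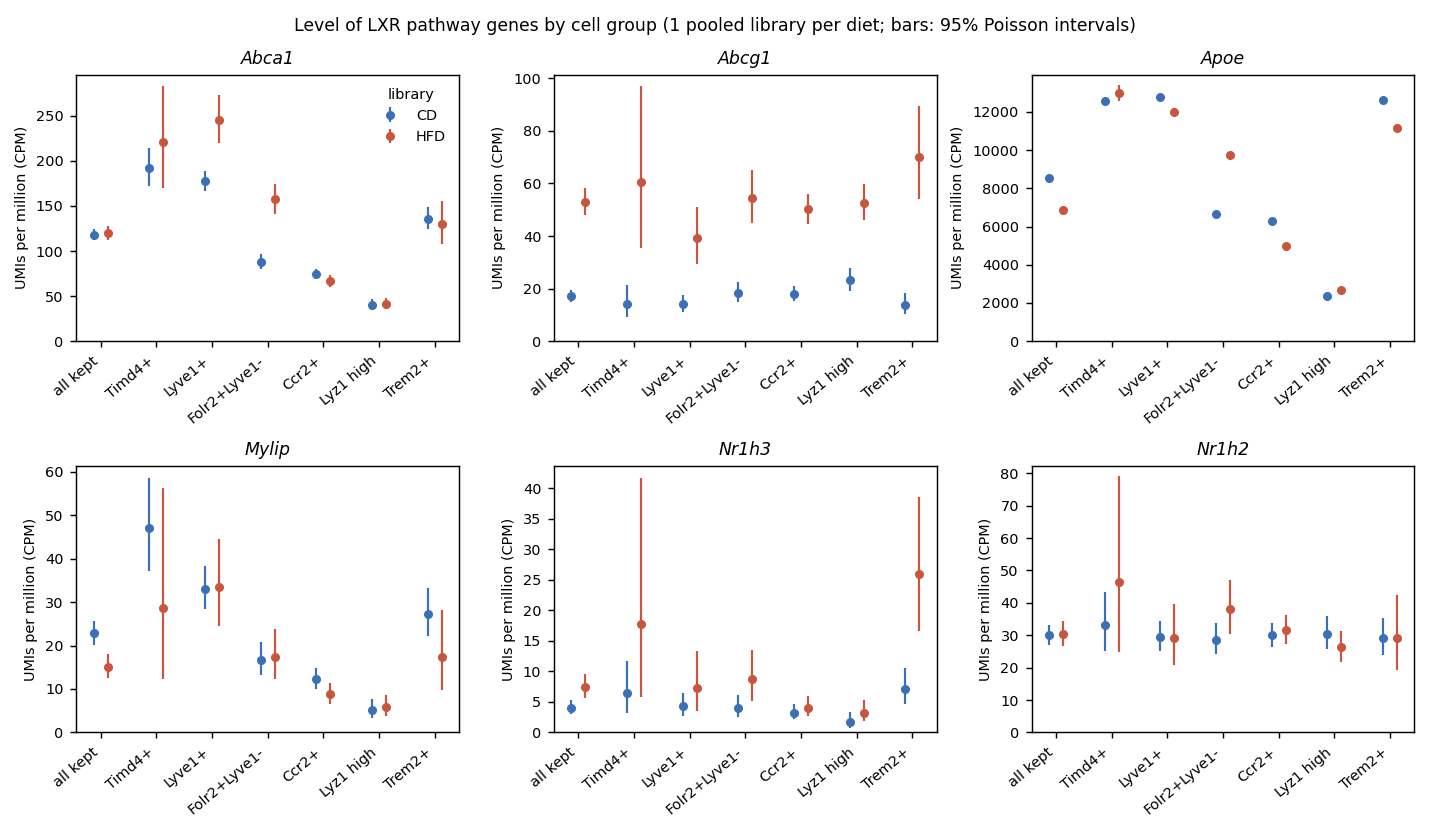
Level in CPM (vertical axes, from 0) of 6 genes in all kept cells and in 6 overlapping cell groups (horizontal axes), with CD in blue, HFD in red and bars for 95% Poisson intervals. *Abcg1* sits higher in HFD in every group, while *Abca1*, *Apoe* and *Mylip* fall from Lyve1+ to Lyz1 high cells in both libraries and *Nr1h2* is flat.

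*Abca1*, on chromosome 4 from 53030787 to 53159895 (ENSMUSG00000015243), differed more between cell groups than between the diets. Lyve1+ cells held 952 *Abca1* UMIs in CD (177 CPM, 166 to 189) and 338 in HFD (245 CPM, 220 to 273). Lyz1 high cells held 193 in CD (40.5 CPM) and 192 in HFD (41.8 CPM). Lyve1+ cells were therefore above the other cells of their library by a log2 ratio of 1.31 (1.15 to 1.47) in CD and 1.39 (1.19 to 1.58) in HFD, and Lyz1 high cells were below, with ratios of -2.04 and -2.41. Within Lyve1+ cells those that also had a *Timd4* UMI had the highest levels, 207 CPM (183 to 233) in CD and 303 CPM (208 to 425) in HFD, against 168 CPM (155 to 181) and 241 CPM (214 to 269) without *Timd4*. The intervals of these neighbours overlapped in HFD and did not in CD. Cells with neither marker were at 67.9 and 91.9 CPM. Lyz1 high cells were deeper than Lyve1+ cells, with medians of 8205 against 4052.5 UMIs in CD and 6609 against 2299 in HFD. Within Lyve1+ cells of CD, *Abca1* fell from 272 CPM with 1000 to under 1500 genes to 95.4 CPM with 2000 to 3500. The part of depth in the contrast between groups was not tested.

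Over all kept cells *Abca1* was level between the diets: 1446 UMIs in CD gave 118 CPM (112 to 124) and 968 in HFD gave 120 CPM (112 to 127), a log2 ratio of 0.02 (-0.09 to 0.14). The cell groups gave another picture. In Folr2+Lyve1- cells the level was 87.8 CPM in CD and 157 CPM in HFD, a log2 ratio of 0.84 (0.63 to 1.05), and in Lyve1+ cells the log2 ratio was 0.47 (0.29 to 0.65). Timd4+ cells, with 323 and 62 UMIs, were at 192 and 221 CPM, and their ratio of 0.20 had an interval from -0.21 to 0.60. Ccr2+ cells (74.5 and 66.4 CPM), Lyz1 high cells and Trem2+ cells (136 and 130 CPM) had ratios of -0.17, 0.04 and -0.07, all with intervals that held 0. The Folr2+Lyve1- cells of CD also held stromal markers at 126 CPM, against 3.20 CPM in HFD, and their part in the ratio was not tested.

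The overlap of the groups and the mix of cells moved with this result. Each cell was then counted once, in the order Timd4+, Lyve1+, Folr2+Lyve1-, Lyz1 high, Ccr2+ and Trem2+. Counted so, *Abca1* was higher in HFD in each of the 6 groups. Its log2 ratio was 0.20 (-0.21 to 0.60) in Timd4+ cells, 0.52 (0.32 to 0.72) in Lyve1+ cells, 0.89 (0.67 to 1.10) in Folr2+Lyve1- cells, 1.06 (0.32 to 1.88) in Ccr2+ cells and 0.72 (0.02 to 1.49) in Lyz1 high cells. The remaining Trem2+ group held 5 and 10 UMIs. A cell with no captured *Timd4*, *Lyve1* or *Folr2* UMI fell to a later group, and HFD cells were shallower. The part of this in the ratios was not tested. Cells with none of the markers, 38 in CD and 266 in HFD, had a ratio of 1.16 (0.18 to 2.33) on 9 and 109 UMIs. These cells also entered the weighting below. Lyz1 high cells counted this way made up 10.1% of CD and 38.1% of HFD UMIs, whereas Timd4+ cells fell from 13.7% to 3.47% and Lyve1+ cells from 32.9% to 15.7%. With the HFD groups weighted by their CD shares, *Abca1* was at 177 CPM in HFD against 118 CPM in CD, a log2 ratio of 0.59 that just passed 1.5-fold. The like values for that weighting were 1.55 for *Abcg1*, 0.22 for *Apoe*, -0.02 for *Mylip*, 1.17 for *Nr1h3* and -0.79 for *Scd1*. This weighting was chosen after the data had been seen.

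**Figure D2:**
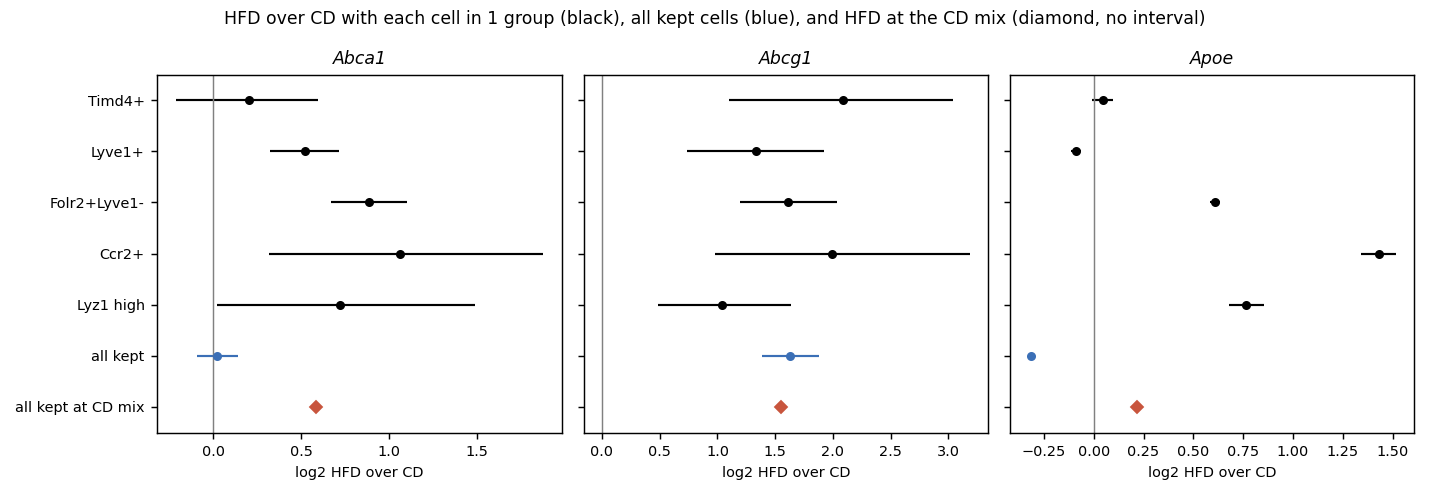
Log2 ratio of HFD over CD (horizontal axes) for *Abca1*, *Abcg1* and *Apoe* with each cell in 1 group (black, 95% counting intervals), in all kept cells (blue) and with HFD weighted to the CD mix (diamond, no interval). *Abca1* is near 0 in all kept cells, at 0.02, but above 0 in each group shown and at 0.59 at the CD mix.

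The number of genes detected per cell moved with *Abca1* as well. In CD *Abca1* was at 257 CPM (214 to 306) in cells with 500 to under 1000 genes, 245 CPM (223 to 268) with 1000 to under 1500, 132 CPM (120 to 144) with 1500 to under 2000 and 56.0 CPM (50.1 to 62.3) with 2000 to 3500. In HFD the same classes had 368, 204, 71.1 and 45.4 CPM, so the fall with genes per cell was present in both libraries. Cells under 1000 genes numbered 341 in CD and 825 in HFD. In them the log2 ratio of HFD over CD was 0.56 (0.27 to 0.85), and in cells with 1000 genes or more it was -0.45 (-0.59 to -0.31). The sign of the *Abca1* difference over all cells thus turned with the genes per cell of the cells taken. The mix of cells differed there too. Of cells with 1000 genes or more, 543 of 2023 were Lyz1 high in CD and 627 of 1196 in HFD. In that class the ratio was 0.10 (-0.12 to 0.32) in Lyve1+ cells and 0.51 (0.26 to 0.75) in Folr2+Lyve1- cells. The parts of depth and of mix in the turn were not tested.

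Within a cell group the sizes also changed with genes per cell. In Lyve1+ cells with 500 to under 1000 genes *Abca1* was at 279 CPM in CD (124 cells) and 516 CPM in HFD (164 cells), a log2 ratio of 0.89 (0.43 to 1.36). With 1000 to under 1500 genes it was at 272 and 385 CPM, a ratio of 0.50 (0.20 to 0.80), and with 1500 to under 2000 and 2000 to 3500 genes the ratios were -0.26 (-0.78 to 0.22) and -0.37 (-0.90 to 0.13). The HFD excess in Lyve1+ cells was thus seen under 1500 genes and not above. In Folr2+Lyve1- cells the ratios of these classes, in the same order, were 0.52 (0.06 to 0.99), -0.06 (-0.46 to 0.33), 0.09 (-0.44 to 0.61) and 0.79 (0.36 to 1.21). Both middle classes there were near 0, although the group taken whole was at 0.84, and the cells under 1000 genes were 144 of 872 in CD and 253 of 581 in HFD. The part of this shift towards cells with few genes in the ratios of whole groups was not tested beyond this split.

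**Figure D3:**
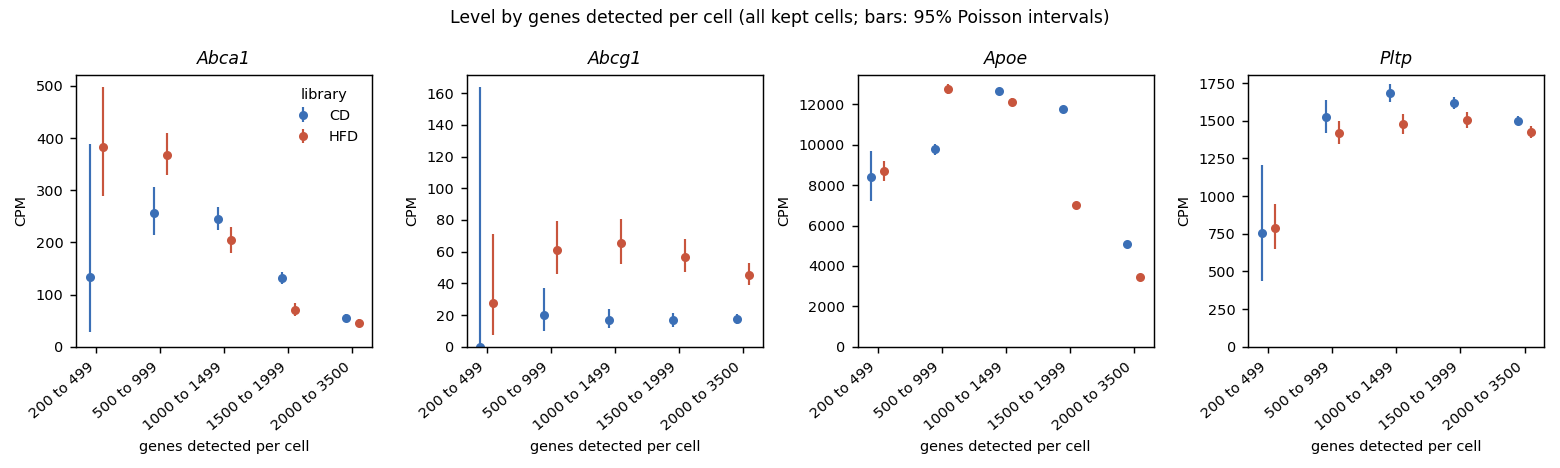
Level in CPM (vertical axes, from 0) by genes detected per cell (horizontal axes) for *Abca1*, *Abcg1*, *Apoe* and *Pltp* in all kept cells, CD in blue and HFD in red, with 95% Poisson intervals. *Abca1* falls from 257 to 56.0 CPM in CD between cells with 500 to under 1000 and 2000 to 3500 genes, while *Abcg1* keeps its gap between the libraries from 500 genes upwards.

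*Abcg1* was the member that differed most between the diets in all kept cells. It encodes the transporter that follows *Abca1* in cholesterol export and lies on chromosome 17 from 31057675 to 31117988 (ENSMUSG00000024030). All kept cells held 210 UMIs in CD, at 17.1 CPM (14.9 to 19.6), and 428 in HFD, at 52.9 CPM (48.0 to 58.2). HFD was 3.10-fold higher, a log2 ratio of 1.63 (1.39 to 1.88), which was above 99.6% of the 9929 genes with at least 50 UMIs over both libraries.

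For *Abcg1* the range of group levels in CD did not overlap that in HFD. The groups share cells, so their levels are not separate observations: 95.7% of Lyz1 high cells of CD were also Ccr2+. How common such a gap was among all genes was not tested. CD ran from 13.8 CPM in Trem2+ cells to 23.1 CPM in Lyz1 high cells, and HFD from 39.2 CPM in Lyve1+ cells to 70.2 CPM in Trem2+ cells. The log2 ratio was 1.49 (0.96 to 2.01) in Lyve1+ cells, 1.57 (1.17 to 1.98) in Folr2+Lyve1- cells and 1.49 (1.21 to 1.78) in Ccr2+ cells. It was 1.19 (0.86 to 1.53) in Lyz1 high cells and 2.35 (1.79 to 2.91) in Trem2+ cells, and 2.09 (1.10 to 3.04) in Timd4+ cells, where it rested on 24 and 17 UMIs. The values in cells with 1000 to under 1500, 1500 to under 2000 and 2000 to 3500 genes were 16.8, 16.7 and 17.3 CPM in CD and 65.2, 56.9 and 45.4 CPM in HFD. In contrast to *Abca1*, no class of cells over 500 genes turned the direction. Under the 13 alternatives its log2 ratio over all kept cells was at most 2.37 and stayed past 1.5-fold in each.

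*Abcg1* also differed from *Abca1* in where it was found. In CD Lyz1 high cells were above the other cells by a log2 ratio of 0.80, from 23.1 against 13.3 CPM, and in HFD the ratio was -0.02 (-0.30 to 0.27). In Lyve1+ cells the ratio was -0.48 in CD and -0.51 in HFD. The transporter pair was therefore distributed in opposite directions across CD cells, *Abca1* with resident and *Abcg1* with Lyz1 high cells.

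*Apoe*, the secreted lipid acceptor, was the most abundant member and followed the cell groups as *Abca1* did. On chromosome 7 from 19696109 to 19699188, it was at 12762 CPM in Lyve1+ cells of CD and 11992 CPM in those of HFD, and at 2385 and 2678 CPM in Lyz1 high cells. Lyve1+ cells were above the other cells by a log2 ratio of 1.28 in CD and 1.04 in HFD. Over all kept cells *Apoe* was lower in HFD, with 8537 against 6871 CPM and a log2 ratio of -0.31 (-0.33 to -0.30). In Folr2+Lyve1- cells it was higher, with 6676 against 9759 CPM and a ratio of 0.55 (0.52 to 0.57), as *Abca1* was. With each cell in 1 group, *Apoe* was higher in HFD by 1.43 in Ccr2+ cells and by 0.77 in Lyz1 high cells. A UMI of *Apoe* was found in 99.4% of CD and 97.6% of HFD cells, so nearly every droplet held some, and how much of the level in low cells came from free RNA was not tested.

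*Pltp* encodes a protein that moves phospholipid between lipoproteins, and its differences between diets and cells were small. Its gene, on chromosome 2 from 164839518 to 164857711, overlaps *Ctsa* on the other strand. It was at 1565 CPM (1543 to 1587) in CD and 1440 CPM (1414 to 1467) in HFD, a log2 ratio of -0.12 (-0.15 to -0.09). Over the 6 groups its ratio ran from -0.32 in Timd4+ cells to 0.12 in Lyz1 high cells. The counts were high and the intervals narrow, and none of the 6 reached 1.5-fold.

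*Mylip* encodes a ubiquitin ligase that limits lipoprotein uptake and lies on chromosome 13 from 45389742 to 45412022. It was at 22.8 CPM (20.2 to 25.6) in CD and 15.1 CPM (12.5 to 18.0) in HFD over all kept cells, a log2 ratio of -0.60 (-0.91 to -0.28). The groups differed in this. In Ccr2+ cells 107 and 54 UMIs gave 12.3 and 8.74 CPM, a ratio of -0.49 (-0.99 to -0.01), and in Trem2+ cells 99 and 16 UMIs gave -0.66 (-1.52 to 0.11). In Lyve1+ cells it was at 33.0 and 33.4 CPM and in Folr2+Lyve1- cells at 16.7 and 17.4 CPM, with ratios of 0.02 and 0.06. In Timd4+ cells 79 UMIs in CD and 8 in HFD gave 47.0 and 28.5 CPM, with an interval of the log2 ratio from -1.98 to 0.33. *Mylip* was, like *Abca1*, higher in Lyve1+ than in other cells, by 1.15 in CD and 1.56 in HFD, and lower in Lyz1 high cells, with ratios of -2.69 and -2.21. With HFD weighted to the CD mix of groups, its ratio over all cells was -0.02.

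The lipid enzymes differed among themselves. *Lpcat3*, which puts polyunsaturated chains into phospholipids, lies on chromosome 6 from 124663027 to 124704418 and overlaps *Emg1* on the other strand. It was at 20.6 CPM in CD and 18.9 CPM in HFD, with a ratio of -0.12 (-0.42 to 0.17). *Scd1*, the stearoyl-CoA desaturase on chromosome 19 from 44394455 to 44407879, held 221 UMIs in CD (18.0 CPM) and 79 in HFD (9.77 CPM), a log2 ratio of -0.88 (-1.27 to -0.50). It was lower in HFD in all 6 groups, from -0.43 (-1.16 to 0.28) in Lyz1 high cells to -1.10 (-2.37 to -0.04) in Trem2+ cells. The Trem2+ value rested on 67 and 8 UMIs. In Timd4+ cells, on 42 and 4 UMIs, the interval from -2.75 to 0.65 also held 0. Adipocytes make large amounts of *Scd1*, and the summed adipocyte markers moved the same way. They were at 108 and 79.9 CPM in Lyve1+ cells, 82.5 and 80.1 CPM in Folr2+Lyve1- cells, and 42.6 and 28.3 CPM in Lyz1 high cells, CD first. The *Scd1* ratio in the Folr2+Lyve1- cells was -0.96, on 62 and 14 UMIs. The part of adipocyte RNA in these ratios was not tested. *Scd2*, the form of the desaturase common in brain, on chromosome 19 from 44293674 to 44306864, had 31 and 30 UMIs in all and a ratio of 0.56 (-0.22 to 1.33). It was above 0 in all 13 alternatives and past 1.5-fold in 3, with an interval too wide to place it.

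**Figure D4:**
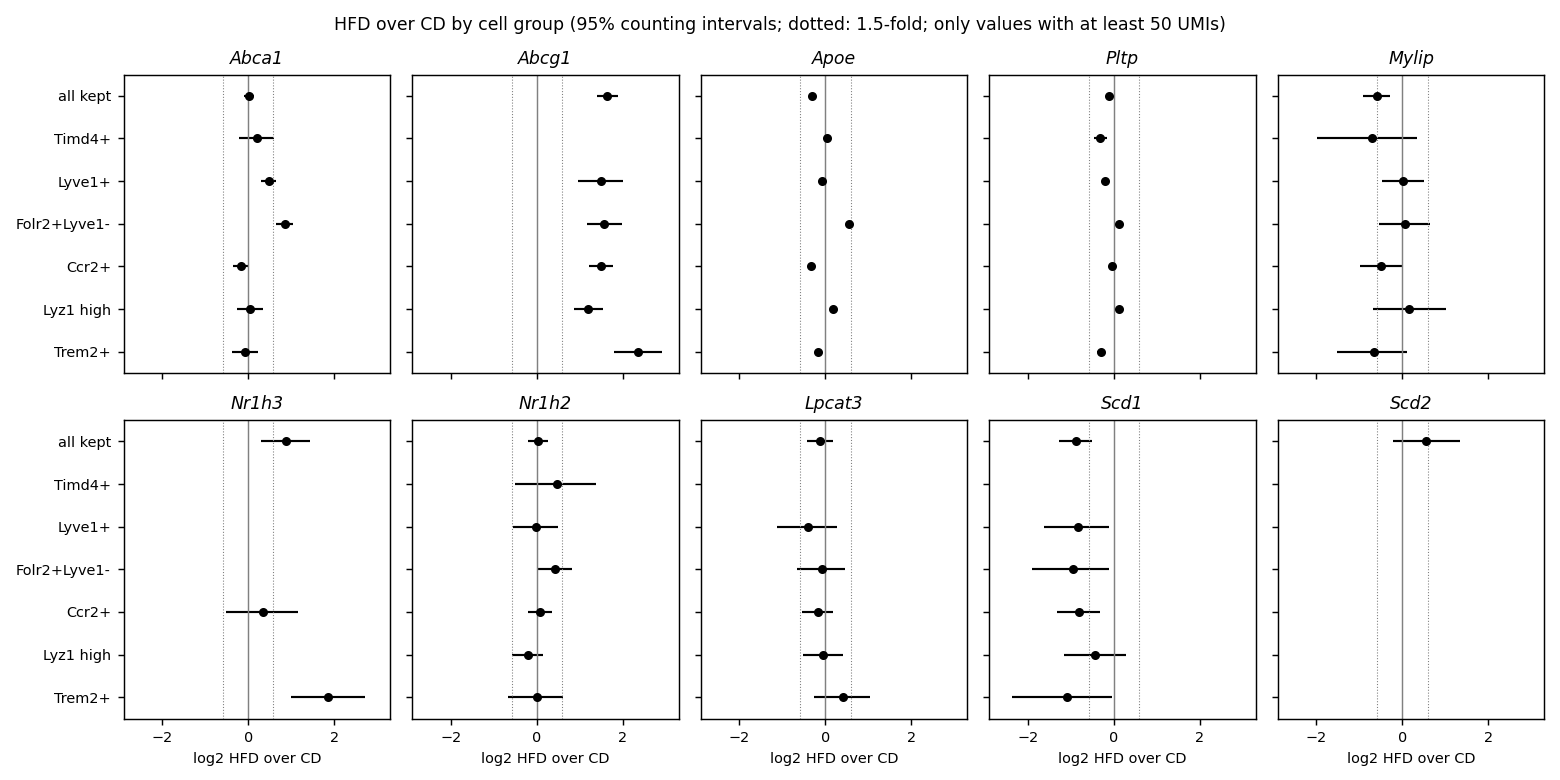
Log2 ratio of HFD over CD (horizontal axes) for the 10 members, with 95% counting intervals, in all kept cells and 6 overlapping groups; dotted lines mark 1.5-fold, and only values resting on at least 50 UMIs are drawn. *Abcg1* lies right of the 1.5-fold line in each group drawn, *Scd1* lies left of 0, and *Nr1h2*, *Pltp* and *Lpcat3* lie near 0.

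Counted together in all kept cells and in the overlapping groups, the members did not move as a set. A gene was counted as higher or lower where HFD and CD differed by at least 1.5-fold and the gene had at least 50 UMIs over both libraries. In all kept cells all 10 members had 50 UMIs and 2 were higher, *Abcg1* and *Nr1h3*, where 4.7% of 9929 genes were, and 2 were lower, *Mylip* and *Scd1*, where 8.94% were. *Mylip* lay close to the limit, and the count of lower members was 1 or 0 under several alternatives. The median log2 ratio of the 10 was -0.05, beside -0.02 over all those genes. In Lyve1+ cells 1 of 8 was higher (*Abcg1*, background 7.27%) and 1 lower (*Scd1*, background 8.58%). In Folr2+Lyve1- cells 2 of 8 were higher (*Abca1* and *Abcg1*, background 7.1%) and 1 lower (*Scd1*, background 5.95%), and the median of the members was 0.26 beside 0.03.

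In the other overlapping groups the counts were as low. In Timd4+ cells none of 5 was higher (background 8.08%) and 1 was lower, *Mylip* (background 17.1%). In Ccr2+ cells 1 of 9 was higher, *Abcg1* (background 4.17%), and 1 lower, *Scd1* (background 8.21%). In Lyz1 high cells 1 of 8 was higher, *Abcg1* (background 4.81%), and none lower (background 6.05%). In Trem2+ cells 2 of 9 were higher, *Abcg1* and *Nr1h3* (background 8.88%), and 2 lower, *Mylip* and *Scd1* (background 16.8%). The *Mylip* ratio turned to 0.26 in Timd4+ cells with a marker limit of 2 UMIs and to 0.40 in Trem2+ cells when thinned. Among these overlapping groups, *Abca1* and *Abcg1* were both past 1.5-fold in Folr2+Lyve1- cells alone. With each cell in 1 group, *Abca1*, *Abcg1* and *Apoe* were all past it in Folr2+Lyve1- cells (0.89, 1.61, 0.61). The same held in Ccr2+ (1.06, 1.99, 1.43) and Lyz1 high cells (0.72, 1.04, 0.77). These were 3 of 8, 3 of 5 and 3 of 6 members (backgrounds 7.11%, 11.4%, 9.07%). Lower were 1, 0 and 0 (backgrounds 5.93%, 6.71%, 5.04%). Counted so, 1 of 8 was higher in Lyve1+ cells (background 7.32%) and none of 5 in Timd4+ cells (8.08%). Ccr2+ and Lyz1 high cells counted so held no *Timd4*, *Lyve1* or *Folr2* UMI. They numbered 103 and 159 in CD and 257 and 474 in HFD, where cells were shallower. Taken whole, these 2 groups had *Abca1* ratios of -0.17 and 0.04. The part of markers missed at lower depth was not tested.

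Across cell groups the members fell into those that rose towards resident cells and those that did not. *Scd2* was below 50 UMIs in each library, which left 9. In Timd4+ cells of CD 4 of 9 were at least 1.5-fold above the other cells, *Abca1*, *Apoe*, *Mylip* and *Nr1h3*, where 11.4% of genes were, and none was lower (background 7.5%). In those of HFD *Nr1h2* made 5, with a background of 16.7%, and none was lower (background 19%). Of these, *Nr1h3* in CD (11 UMIs) and *Mylip*, *Nr1h3* and *Nr1h2* in HFD (8, 5 and 13 UMIs) had intervals that held 0. In Lyve1+ cells of CD 4 of 9 were above, *Abca1*, *Apoe*, *Mylip* and *Scd1* (background 14.7%), and none below (background 7.43%). In those of HFD 3 were above, *Abca1*, *Apoe* and *Mylip* (background 12.6%), and none below (background 6.54%).

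The Ccr2+ and Lyz1 high groups showed the opposite, although 37.5% of Ccr2+ cells of CD were also Lyve1+. In Ccr2+ cells 5 of 9 members were lower in each library, *Abca1*, *Apoe*, *Mylip*, *Nr1h3* and *Scd1*, where 19.3% of genes in CD and 22.1% in HFD were, and none was higher (background 8.71% and 8.17%). In Lyz1 high cells these 5 were again lower (background 23.9% in CD and 23.1% in HFD). *Abcg1* alone was higher there in CD (background 7.94%) and no member in HFD (background 5.9%). *Nr1h2*, *Pltp* and *Lpcat3* were within 1.5-fold of the other cells in Lyve1+ and in Lyz1 high cells of both libraries.

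Folr2+Lyve1- and Trem2+ cells lay between. Folr2+Lyve1- cells of CD had 3 of 9 members lower, *Abca1*, *Mylip* and *Scd1* (background 5.69%), and none higher (background 1.92%), whereas those of HFD had *Apoe* higher (background 5.35%) and *Scd1* lower (background 3.71%). *Abca1* in these cells was at 87.8 CPM against 138 CPM in the other cells of CD, and at 157 against 106 CPM in HFD, so its place among the cells differed between the libraries. Thinning to 1000 UMIs also redrew the groups. Then 622 in place of 1172 CD cells were Lyve1+ and 887 in place of 872 were Folr2+Lyve1-. In the redrawn Folr2+Lyve1- cells of CD, *Abca1*, *Mylip* and *Scd1* had ratios of 0.45, 0.50 and 0.025. With the groups kept as drawn at full depth, a thinned *Abca1* UMI was in 12.4% of Folr2+Lyve1- and 14.2% of all kept CD cells. For *Mylip* these shares were 2.69% and 3.20%, and for *Scd1* 1.75% and 1.99%. Trem2+ cells had *Apoe* and *Nr1h3* higher in CD (background 4.28%), joined by *Lpcat3* in HFD (background 8.29%), and none lower (background 4.54% and 14.2%). *Lpcat3* turned to -0.32 when thinned, and *Apoe* in CD to -0.97 in the 9 cells left when each cell was in 1 group.

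Cells with and without an *Abca1* UMI were then compared within Lyve1+ cells, to ask whether other targets accompanied it cell by cell. In CD 585 cells had one and 587 did not, with medians of 4234 and 3884 UMIs. *Mylip* was higher in the cells with *Abca1*, at 40.2 against 25.4 CPM, a log2 ratio of 0.66 (0.21 to 1.12), and *Scd1* by 0.63 (0.09 to 1.18), which thinning turned to -0.68 on 3 and 22 UMIs, 2 of 7 members counted where 2.64% of genes were past 1.5-fold, and none was lower (background 2.53%). *Apoe* was higher by 0.18 (0.16 to 0.20), and *Abcg1* differed by 0.14 (-0.55 to 0.83). *Nr1h3* had 19 UMIs in the cells with *Abca1* and 4 in those without. After thinning it had 2 UMIs in 209 cells with *Abca1* and 4 in 953 cells without. That gave 9.58 and 4.20 CPM, a ratio of 1.19 (-2.28 to 3.99). At full depth in HFD Lyve1+ cells it had 4 with and 6 without, a ratio of -0.38. In Folr2+Lyve1- cells it had 6 and 14 in CD (-0.14) and 7 and 12 in HFD (-0.10). None of these reached 50 UMIs.

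In HFD 200 Lyve1+ cells had an *Abca1* UMI and 215 did not, with medians of 2349.5 and 2277 UMIs. *Abcg1* was at 48.5 against 31.2 CPM, a ratio of 0.64 with an interval from -0.19 to 1.48, the only 1 of 3 members higher by 1.5-fold where 6.55% of genes were, and none was lower (background 4.46%). *Mylip* had 32 against 14 UMIs and *Apoe* was higher by 0.21 (0.16 to 0.25). *Cd38*, an LXR target that encodes an enzyme which breaks down NAD, was at 210 against 102 CPM, a ratio of 1.04 (0.63 to 1.47), and in CD the ratio was 0.28 (0.07 to 0.50). *Lpl*, which encodes lipoprotein lipase and is also an LXR target, was lower in the cells with *Abca1*, with ratios of -0.43 in CD and -0.67 in HFD. After thinning to 1000 UMIs a cell, 209 CD and 107 HFD Lyve1+ cells still had an *Abca1* UMI. The *Apoe* ratio was then 0.06 in CD and -0.08 in HFD, and *Cd38* was at 177 against 147 CPM in CD and 328 against 164 CPM in HFD.

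In Folr2+Lyve1- cells *Abcg1* went opposite ways in the libraries. In CD it was at 11.9 CPM with and 21.4 CPM without *Abca1*, a ratio of -0.84 (-1.66 to -0.10), the 1 of 7 members that was lower (background 5.58%), while *Apoe*, *Mylip* and *Scd1* were higher (background 6.82%). The CD cells with *Abca1* were shallower, at a median of 4162 against 5331.5 UMIs, and after thinning neither of the 2 members with 50 UMIs was higher, *Apoe* moving from 0.80 to 0.29. In HFD *Abcg1* was at 68.9 and 45.4 CPM, a ratio of 0.60 (0.06 to 1.14). It was the 1 of 4 members that was higher (background 5.38%), and none was lower (background 4.29%). After thinning 1 of the 2 HFD members with 50 UMIs was higher, *Apoe* (background 11.1%). Over all kept cells 4 of 8 members were higher in CD, *Apoe*, *Mylip*, *Nr1h3* and *Scd1* (background 7.53%), and 2 of 8 in HFD, *Apoe* and *Mylip* (background 8.49%), with none lower (background 4.97% and 3.53%). After thinning 1 of 4 was higher in each, *Mylip* in CD (background 11.5%) and *Apoe* in HFD (background 15.9%), and *Apoe* in CD was at 0.33.

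Over the 12 points given by 6 groups in 2 libraries, the genes whose log2 level followed that of *Abca1* most closely, among 6391 with at least 100 UMIs in each library, were *Dse* (Pearson's r = 0.979), *Cd38* (0.968), *Pf4* (0.968), *Apoe* (0.966) and *Cd163* (0.962). Each cell was counted in 1 group only. These are descriptions, since the points share libraries and the Trem2+ points rest on 9 cells in CD and 11 in HFD. In CD those cells held 6 *Mylip*, 4 *Nr1h3* and 9 *Scd1* UMIs. *Cd163* encodes the haemoglobin scavenger receptor and *Pf4* a chemokine, both known in resident macrophages. Of the other members *Mylip* had r = 0.68, *Nr1h3* 0.43, *Scd1* 0.27, *Abcg1* 0.21, *Pltp* 0.17, *Nr1h2* 0.07, *Lpcat3* -0.24 and *Scd2* -0.38.

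A wider list of 19 further LXR targets gave 14 genes with at least 50 UMIs in all kept cells, of which 3 were higher in HFD (background 4.7%) and 1 lower (background 8.94%). Their median log2 ratio was 0.19, beside -0.02 over all genes counted. *Vegfa*, the vascular growth factor, which many stimuli besides LXR raise, went from 20 UMIs (1.63 CPM) to 78 (9.65 CPM), a ratio of 2.57 (1.84 to 3.35). *Apoc1*, a small apolipoprotein, was higher by 0.91 (0.22 to 1.60) and *Tgm2*, a transglutaminase used in the uptake of dead cells, by 0.78 (0.12 to 1.44). *Fasn*, the fatty acid synthase, was lower, at 8.30 and 5.07 CPM and a ratio of -0.71. *Srebf1*, through which LXRs drive fatty acid synthesis, was at 13.3 and 16.8 CPM, with a ratio of 0.34 (0.00 to 0.68). The groups gave different counts. In Lyve1+ cells none of 8 was past 1.5-fold (backgrounds 7.27% higher and 8.58% lower), and in Folr2+Lyve1- cells 1 of 9 was higher, *Cd38* at 0.60 (backgrounds 7.1% and 5.95%). In Timd4+ cells 2 of 7 were higher, *Cd5l* and *Smpdl3a* (backgrounds 8.08% and 17.1%). In Ccr2+ cells *Apoc1* and *Vegfa* of 12 were higher and *Fasn* lower (backgrounds 4.17% and 8.21%), and in Lyz1 high cells *Vegfa* of 11 was higher (backgrounds 4.81% and 6.05%). In Trem2+ cells 3 of 9 were higher, among them *Lpl* at 573 and 1534 CPM, with *Smpdl3a* and *Cd5l*, and 2 were lower, *Cd38* at 106 and 44.3 CPM and *Elovl5* (backgrounds 8.88% and 16.8%).

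Receptor partners differed little over all kept cells. Of 13 retinoid X receptor and coregulator genes 12 had 50 UMIs in all kept cells and none was past 1.5-fold (backgrounds 4.7% and 8.94%), with a median of 0.04 beside -0.02. In some groups a single gene was past 1.5-fold. *Ncor1* of 8 was higher in Timd4+ cells (0.78, background 8.08%). Of 12 counted, *Ncoa2* was higher in Lyve1+ (0.61, background 7.27%) and Folr2+Lyve1- cells (0.81, background 7.1%). *Rxrb* of 12 was higher in Lyz1 high cells (0.66, background 4.81%), and *Tbl1xr1* of 12 was lower in Trem2+ cells (-0.61, background 16.8%). *Rxra*, the retinoid X receptor gene that pairs with both LXRs, was at 23.9 CPM in CD and 22.1 CPM in HFD. Of 11 other ABC transporter genes 7 were counted in all kept cells, with a median of -0.09 beside -0.02. Of these 1 was higher (background 4.7%), *Abca6* by 1.04 (0.48 to 1.61). *Abcg2* (-0.77) and *Abca2* (-0.61) were the 2 lower (background 8.94%).

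Of 14 sterol handling genes 13 were counted, of which 2 were higher (background 4.7%) and none lower (background 8.94%), with a median of 0.13 beside -0.02 over all genes counted. *Soat1*, which esterifies cholesterol for storage, was at 40.4 CPM in CD and 70.9 CPM in HFD, a ratio of 0.81 (0.64 to 0.99). *Nceh1*, a hydrolase of those esters, was at 32.6 and 51.3 CPM, a ratio of 0.65 (0.45 to 0.85). *Soat1* was past 1.5-fold in all 6 cell groups, from 0.66 in Ccr2+ cells to 1.06 in Trem2+ cells, although in Timd4+ cells the interval, -0.11 to 1.56, held 0. *Nceh1* was past it in 5 groups and at -0.37 (-1.64 to 0.70) in Timd4+ cells, on 62 and 8 UMIs. In Timd4+ cells 1 of 9 genes was higher (background 8.08%). In Lyve1+ and in Folr2+Lyve1- cells 3 of 12 were (7.27% and 7.1%). In Ccr2+ cells 2 of 13 were (4.17%), in Lyz1 high cells 4 of 13 (4.81%) and in Trem2+ cells 4 of 12 (8.88%). *Scarb1* alone was lower, in Lyve1+ and Trem2+ cells (backgrounds 8.58% and 16.8%). No gene was lower in the other groups (backgrounds 5.95% to 17.1%).

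**Figure D5:**
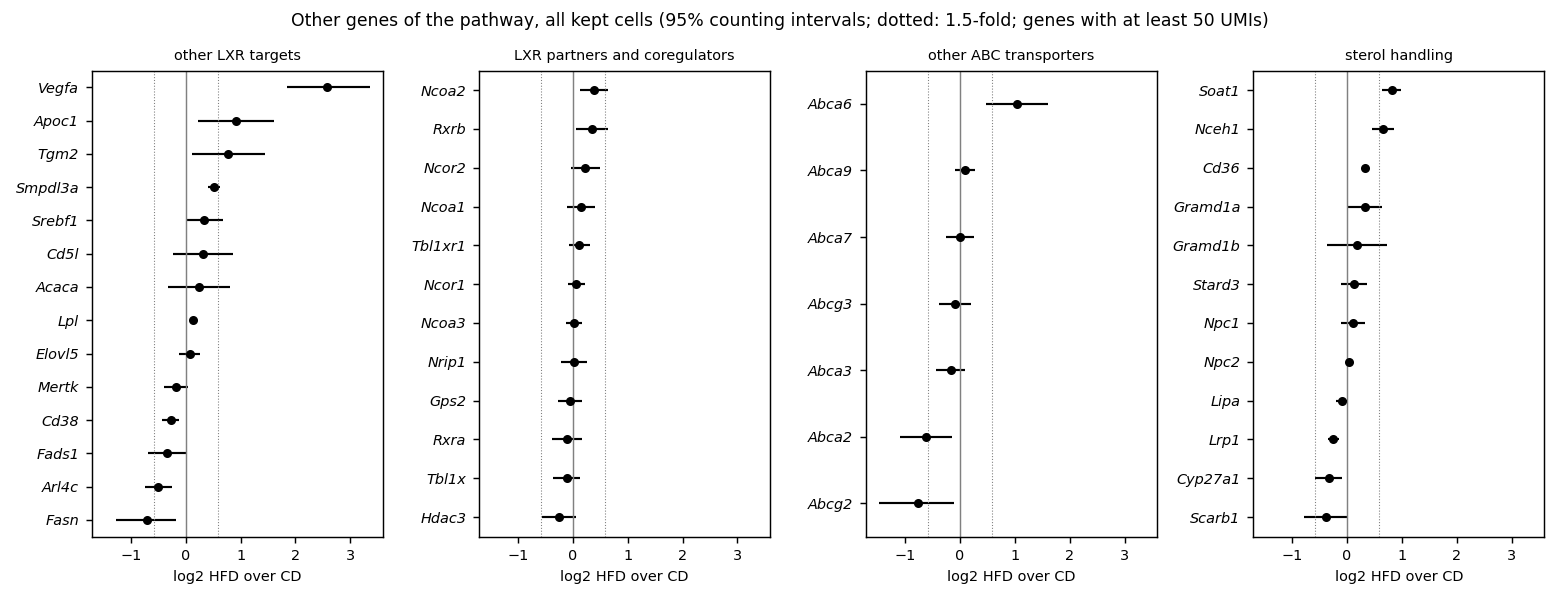
Log2 ratio of HFD over CD in all kept cells (horizontal axes) with 95% counting intervals for genes of 4 lists with at least 50 UMIs, sorted within each list, with 1 sterol handling gene not drawn; dotted lines mark 1.5-fold. *Vegfa*, *Abca6* and *Soat1* are the highest of their lists, and no partner or coregulator is past a dotted line.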

How the data were processed

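Droplet-based scRNA-seq of sorted epididymal ATMs gave 1 CD and 1 HFD library, each from 3 pooled mice. The authors deposited raw UMI counts for each gene in each barcode. The submitters' processing notes name Cell Ranger 3.0.2, mm10 and Ensembl 93. Cells with 200 to 3500 genes and at most 10% mitochondrial UMIs were kept. UMIs were summed over cells in Python 3.11.15 (numpy 2.4.6, scipy 1.17.1, matplotlib 3.10.9) and scaled to CPM. All intervals are at 95% and for counting error only: Poisson for levels, conditional binomial for ratios, Clopper-Pearson for shares. No p-value was computed, since each diet had 1 library. Of the barcode and gene name tables only the order and the names were used.

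The members and lists were chosen with earlier results of these data known. All members were named. From each list, genes at least 1.5-fold different in all kept cells with at least 50 UMIs were named, up to 4 each way. *Cd38*, *Lpl*, *Srebf1*, *Rxra*, *Adipoq*, the list genes named in single cell groups, and the split by genes per cell, were chosen after their values had been seen. The genes most like *Abca1* were the 5 with the highest r of log2(CPM + 10) over the 12 group levels, with each cell in 1 group. Alternatives changed limits on genes and mitochondrial UMIs, scaling, the weight and depth of cells, the marker limit, shared barcodes and the deepest 5% of cells. Thinning as an alternative redrew the groups from the thinned counts. Cells with and without an *Abca1* UMI were thinned within the groups drawn at full depth. Ratios and intervals were tested on simulated counts that held Poisson counting error only. Variation between mice, pools or cells was not simulated, so that check does not cover it. Gene positions are from GENCODE M21 (GRCm38), promoters from RefSeq (GRCm38.p6). Values of some single genes of the lists are not reported here.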

Additional observations from a re-analysis of the deposited data

Results flagged for a closer look

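The barcodes with over 10% mitochondrial UMIs, 2059 in CD and 1132 in HFD, took no part in the comparisons above. There *Abca1* was at 349 CPM (322 to 378) in CD and 443 CPM (398 to 492) in HFD, counted without mitochondrial UMIs, a log2 ratio of 0.34 (0.15 to 0.54). *Abcg1* was at 24.7 CPM (17.9 to 33.2) and 60.3 CPM (44.4 to 79.9), a log2 ratio of 1.29 (0.67 to 1.91). Both were set apart because the HFD interval lay wholly above the CD interval in data left out of the report, as it did for 2 of the 7 members with at least 50 UMIs there and for 4.9% of 6121 genes. *Pltp* lay wholly below, at 1426 and 1173 CPM and a ratio of -0.28 (-0.39 to -0.17), as did 7.94% of genes. The barcodes were shallow, with a median of 892 UMIs in CD.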

How the results depend on the processing

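Depth limited most values: the HFD cells were shallower, *Nr1h3* and *Scd2* rested on few UMIs, and the groups overlap. No paired analysis was possible because each diet had 1 library and no replicate numbers. *Abcg1* stayed at least 1.5-fold higher in HFD under all 13 alternatives in all kept cells and in the 5 groups with 50 UMIs. The *Abca1* ratio over all kept cells, 0.02, was -0.45 with at least 1000 genes per cell, 0.43 with equal weight per cell, 0.23 after thinning to 1000 UMIs, and 0.59 at the CD mix of groups, an alternative chosen after seeing the data. In Timd4+ cells it was -0.22 with a marker limit of 2 UMIs. In Lyve1+ cells it was 0.10 with at least 1000 genes, 0.77 with equal weight, 0.79 thinned and 0.71 with the limit of 2. In Folr2+Lyve1- cells it was 0.51 with at least 1000 genes. In Ccr2+ cells it was 0.018 with a mitochondrial limit of 5% and 1.06 with each cell in 1 group, and in Lyz1 high cells 0.82 thinned and 0.72 with each cell in 1 group. In Trem2+ cells it was 0.23 with equal weight, -0.56 with the limit of 2 and 0.93 with each cell in 1 group.

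*Abca1* in Lyve1+ over other cells stayed above 0: in CD it was 1.06 with a mitochondrial limit of 20%, 0.87 with equal weight, 0.84 thinned, 1.04 with the limit of 2 and 0.85 with each cell in 1 group, and in HFD 1.16 with the limit of 20% and 0.97 with equal weight. Members higher in all kept cells were 1 in place of 2 when thinned or with a limit of 2-fold. They were 3 with a mitochondrial limit of 5% (background 4.44%). They were also 3 when scaled without mitochondrial, ribosomal and top 20 genes (background 5.55%). When thinned, only 8 members had enough UMIs to be counted, and 6.81% of genes were higher. *Nr1h3*, then found in 10 CD and 18 HFD cells, had too few UMIs to be counted. Its ratio over all kept cells stayed at least 1.5-fold higher in HFD in all 13 alternatives. Members lower were 1 in place of 2 with the upper gene limit at the upper quartile plus 1.5 interquartile ranges, with mitochondrial limits of 5% or 20%, when scaled without mitochondrial, ribosomal and top 20 genes or by the median gene, when thinned, and without shared barcodes, and 0 with equal weight or a limit of 2-fold.

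Directions turned in some single values. For values of whole groups, thinning also redrew the groups from the thinned counts, so the cells were not the same. Of HFD over CD, *Mylip* became 0.26 in Timd4+ cells with the marker limit of 2 and 0.40 in Trem2+ cells when thinned. Of a group over other cells, thinning turned *Scd1* in Lyve1+ cells of CD to -0.18, *Abca1*, *Mylip* and *Scd1* in Folr2+Lyve1- cells of CD to 0.45, 0.50 and 0.025, *Scd1* in HFD to 0.27 in Ccr2+ and 0.34 in Lyz1 high cells, and *Lpcat3* in Trem2+ cells of HFD to -0.32. With each cell in 1 group, *Scd1* in Ccr2+ cells became 0.45 in CD and 0.44 in HFD, *Apoe* in Trem2+ cells of CD -0.97 and *Nr1h3* in Ccr2+ cells of HFD 0.42. *Nr1h2* in Timd4+ cells of HFD became -1.22 with the marker limit of 2. *Scd1* in Lyve1+ cells of CD with over those without *Abca1* became -0.68 when thinned. The cause of these moves was not tested.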

Other observations

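The genes that followed *Abcg1* most closely over the same 12 group levels were *Manf* (r = 0.946) and *Pdia6* (0.944), which encode proteins of the endoplasmic reticulum, *Plin2* (0.922), the coat protein of lipid droplets, *Utp3* (0.893) and *C1galt1c1* (0.892). None of them was among the 5 genes most like *Abca1*. This list was made after the values of *Abcg1* had been seen, and the points share libraries. Among the barcodes with over 10% mitochondrial UMIs, *Scd1* was at 90.9 CPM in CD and 65.3 CPM in HFD when scaled without mitochondrial UMIs, and in the kept cells, scaled with them, it was at 18.0 and 9.77 CPM.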
